A study of Schizosaccharomyces pombe with 6 samples.

Results

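The long terminal repeats (LTRs) of retrotransposons and the Tf2 elements of fission yeast, *Schizosaccharomyces pombe*, were examined in a calibrated ChIP-seq of CFP-Cnp1. All LTR features of the annotation on chromosomes I, II and III were taken, 238 in number, together with the 13 Tf2 genes from Tf2-1 to Tf2-13, 251 regions in all. No value of the peaks was used to choose them. Each region was set against 3 deposited lists of peaks, with 35918 windows of 350 bp tiled along the 3 chromosomes and the 12574 genes of the annotation as the rest of the genome.

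Cnp1 is the CENP-A histone of this yeast, the variant that marks the centromere, and it was pulled down through its CFP tag with an anti-GFP antibody. In *SUMO-KallR*, *CFP-cnp1* is combined with *pmt3-KallR*, an allele of the only SUMO gene, in which all lysines of SUMO are arginines and SUMO chains cannot form. WT carries *CFP-cnp1* with the normal SUMO gene. The untagged strain lacks CFP-Cnp1 and gives the background of the anti-GFP pulldown. All 3 strains carry *ade6-704*, *leu1-32* and *ura4-D18*, a deletion of *ura4*, and were grown in rich medium. Each strain gave 1 ChIP library and 1 input library, so no difference between strains can be set against an error and no test between them was made. Read depth is not in the peak lists. The label of the tagged strains was checked at the centromeres, taken as the longest stretch without a protein-coding gene on each chromosome. The highest peak there had a height of 3889.9 to 4789.1 in *SUMO-KallR* and 3709.0 to 4139.3 in WT, against 121.4 to 251.8 in the untagged strain. A height is the deposited score divided by 10, which by the convention of the peak caller MACS is the highest −log10 of the *p*-value in the peak.

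An LTR retrotransposon copies itself through RNA and reverse transcription and inserts the DNA copy at a new place. A full element is flanked by an LTR at each end, and recombination between these LTRs removes the inner part and leaves a solo LTR. Tf2 is the family that still has full-length copies in the laboratory strain, and its single long gene encodes the coat protein, the protease, the reverse transcriptase and the integrase. Tf1, its relative, remains there only as solo LTRs. In fission yeast the CENP-B-like proteins Cbp1, Cbh1 and Cbh2 bind LTRs and keep Tf elements silent, and Sap1 binds LTRs and arrests replication forks there.

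The LTRs were short, AT-rich sequences that often resembled each other. They measured 75 to 412 bp with a median of 346.5 bp, lay 112 on the forward and 126 on the reverse strand, and occupied 76206 bp, 0.606% of the 3 chromosomes. Their GC content had a median of 32.9% and ranged from 25% to 39.3%, against medians of 36.0% over all windows and 31.4% over the 5108 windows outside protein-coding genes and LTRs. Of the 238 LTRs, 90 were on chromosome I, 69 on II and 79 on III. None lay in a centromere stretch, 44 lay within 100 kb of a chromosome end, and 18 overlapped a protein-coding gene. The LTR on each side of a Tf2 gene within 1000 bp was taken as an element LTR. That gave 25 element LTRs, since Tf2-7 and Tf2-8 are tandem copies that share the LTR between them, and 213 solo LTRs.

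The sequences below show one LTR that occurs 12 times letter for letter, and 4 solo LTRs with different peak cover. They were read from the ASM294v3 assembly of RefSeq and are written 5′ to 3′ on the strand of the LTR. Capitals mark TGT at the start and ACA at the end, the ends typical of an LTR, where the LTR has them. The first gives 300 of 349 bases of the 5′ LTR of Tf2-9 (chrII:1816914-1817262, reverse strand), which had 0.0% of its length under peaks in all 3 lists. The second and the next give the first 120 bases of a solo LTR free in all lists (chrI:402409-402782, forward strand, 374 bp) and of a solo LTR at 0.0% in *SUMO-KallR* and WT and 100.0% in the untagged list (chrIII:187086-187449, forward strand, 364 bp). The last are whole features, a solo LTR at 100.0% in *SUMO-KallR*, 0.0% in WT and 100.0% for untagged peaks (chrI:446075-446342, forward strand, 268 bp), and the single LTR that was wholly under a *SUMO-KallR* peak and free of untagged peaks (chrIII:1195985-1196059, reverse strand, 75 bp).
Tf2-9 5′ LTR: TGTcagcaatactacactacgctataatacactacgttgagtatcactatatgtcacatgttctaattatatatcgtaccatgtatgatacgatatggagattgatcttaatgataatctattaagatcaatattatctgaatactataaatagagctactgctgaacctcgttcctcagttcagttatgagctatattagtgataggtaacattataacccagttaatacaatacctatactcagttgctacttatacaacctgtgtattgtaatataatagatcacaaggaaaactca
solo LTR free in all lists: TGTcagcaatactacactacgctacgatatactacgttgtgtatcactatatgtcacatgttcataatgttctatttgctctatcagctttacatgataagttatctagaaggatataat
solo LTR near fft2: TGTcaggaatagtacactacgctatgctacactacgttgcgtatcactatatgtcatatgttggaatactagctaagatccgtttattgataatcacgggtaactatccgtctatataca
solo LTR next to SPATRNAVAL.01: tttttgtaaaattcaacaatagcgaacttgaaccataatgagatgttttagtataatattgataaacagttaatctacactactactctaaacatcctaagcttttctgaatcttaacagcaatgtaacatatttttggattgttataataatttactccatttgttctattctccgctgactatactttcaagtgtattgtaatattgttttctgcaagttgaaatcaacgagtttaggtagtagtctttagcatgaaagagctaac
solo LTR in nse1: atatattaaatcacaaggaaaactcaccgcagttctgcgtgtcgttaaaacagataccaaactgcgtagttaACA

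The 12 copies of the first sequence and both LTRs shown after it start alike. Of the first 60 bases, the solo LTR on chromosome I had 56 and that on chromosome III at 187086 had 54 in common with the Tf2 LTR. The first 20 bases, TGTCAGCAATACTACACTAC, were searched in the direction of each LTR and on both strands of the windows. They were held by 62 LTRs (26.05%), 55 of which began with them, against 0.198% of all windows, and by 0 windows without an LTR base. TGT and ACA at both ends were present in 86 LTRs (36.1%), against 0.0306% of windows read on the forward strand. A run of 8 A or 8 T, a common feature of intergenic DNA in this yeast, was nearly missing from LTRs, with 4 of 238 (1.68%), against 33.1% of the windows outside protein-coding genes and LTRs and 17.7% of all windows.

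The LTRs lay under peaks less often than the rest of the genome in the *SUMO-KallR* and untagged lists, and not at all in the WT list. At least 1 bp of 144 of 238 LTRs (60.5%) was under a *SUMO-KallR* peak, of 0 under a WT peak and of 197 (82.8%) under an untagged peak. The background is high in the first and the last of these lists, since their peaks covered 92.8% (*SUMO-KallR*) and 95.2% (untagged) of the chromosomes and WT peaks covered 1.12%. Of the 350 bp windows, 96.6% were under a *SUMO-KallR* peak, 1.27% under a WT peak and 97.5% under an untagged peak. Most LTRs lie between genes, and of the windows outside protein-coding genes and LTRs, 83.8% were under a *SUMO-KallR* peak, 8.2% under a WT peak and 86.8% under an untagged peak. The share of LTRs under peaks was 23.3 points below that of the outside windows in *SUMO-KallR* and 4.05 points below in the untagged list. The exact binomial 95% interval of the share, which covers counting only, was 54.0% to 66.8% in *SUMO-KallR*. In the untagged list it was 77.4% to 87.4%, which holds the share of the outside windows. The interval takes LTRs as independent, though 15 gaps between *SUMO-KallR* peaks held at least 2 of them, so it is no test against windows. No LTR lies in a centromere stretch, and WT peaks covered 67.0% to 95.7% of these stretches.

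How much of each LTR was covered separated LTRs from windows more clearly in the untagged list than the 1 bp count did. The whole length was under peaks for 56 LTRs (23.5%) in the *SUMO-KallR* list and 115 (48.3%) in the untagged list, and for 0 in WT. Of the outside windows, 60.3% were wholly covered in *SUMO-KallR* and 69.5% in the untagged list. The median LTR was covered to 21.3% by *SUMO-KallR* peaks and to 81.9% by untagged peaks, while the median outside window was wholly covered in *SUMO-KallR* and the untagged list. The mean cover of an LTR was 38.8% in *SUMO-KallR* and 66.2% in the untagged list, against 72.4% and 78.8% of an outside window. The bar plot of free, partly and wholly covered regions shows that LTRs of both kinds were more often cut by a peak edge than windows were.

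**Figure D1:**
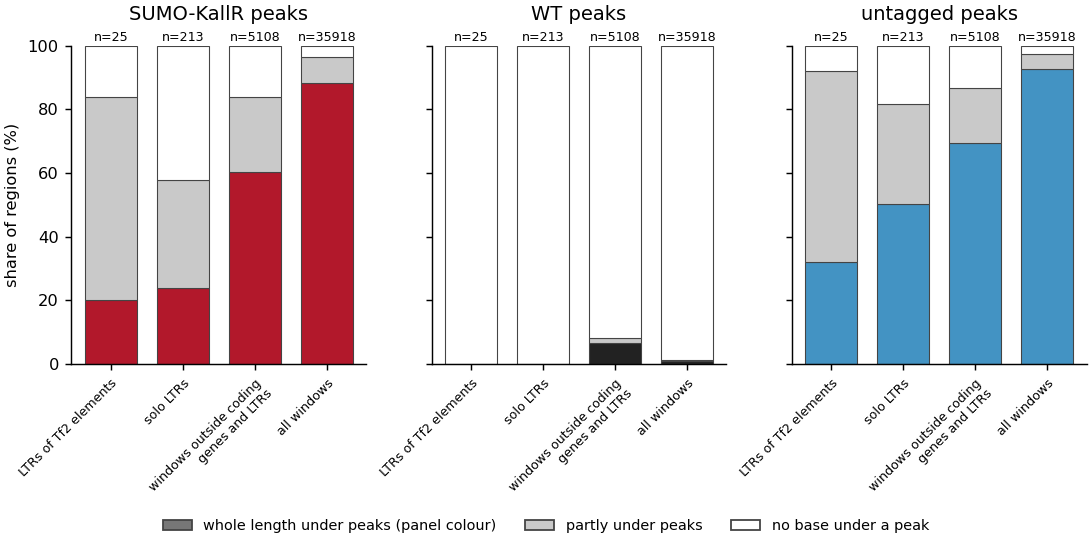
Share of regions (%) with the whole length, a part or no base under peaks of the *SUMO-KallR*, WT and untagged lists, for the LTRs of Tf2 elements (n = 25), solo LTRs (n = 213), windows outside protein-coding genes and LTRs (n = 5108) and all windows (n = 35918). Solo LTRs were free of peaks in 42.3% of cases in *SUMO-KallR* and 18.3% in the untagged list, and no LTR was under a WT peak.

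The LTRs of full Tf2 elements had at least 1 bp under peaks more often than solo LTRs, but were not wholly under peaks more often. In *SUMO-KallR*, 21 of 25 element LTRs (84.0%) and 123 of 213 solo LTRs (57.7%) were under a peak, with median covers of 56.7% and 8.96%. In the untagged list these were 23 of 25 (92.0%) and 174 of 213 (81.7%), with medians of 75.6% and 100%. Element LTRs adjoin a long element body that was nearly always under a peak, and 1 of the 25 was unique throughout, against 140 of 213 solo LTRs. Unique here means that every 150-base sequence, the length of a read, that overlaps the LTR occurs once in the genome. The whole length was covered in 5 element LTRs (20%) and 51 solo LTRs (23.9%) in *SUMO-KallR*, and in 8 (32%) and 107 (50.2%) in the untagged list. LTR length was not matched in these counts, and 24 element LTRs and 126 solo LTRs measured at least 340 bp. Of all LTRs of at least 340 bp, 16.7% (*SUMO-KallR*) and 38% (untagged) were wholly covered. Shorter LTRs were wholly covered in 35.2% and 65.9% of cases.

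Values were also taken within classes of repetition, base composition and length, for LTRs and for windows of the same class. Among the 141 LTRs unique throughout, 58 (41.1%) were free of *SUMO-KallR* peaks and 27 (19.1%) of untagged peaks. Of the outside windows unique throughout, 17.4% were free in *SUMO-KallR* and 12.2% in the untagged list. Of the 53 LTRs unique over most but not all of their length, 50.9% were free in *SUMO-KallR* and 13.2% in the untagged list. Among all windows, those of that class were free in 14.6% and 7.31% of cases. The remaining 44 LTRs, which included most element LTRs, were free in 20.45% and 15.9% of cases, against 8.08% and 12.9% of such windows. In *SUMO-KallR* the least unique LTRs were thus free least often. The windows of the less unique classes were not restricted to DNA outside protein-coding genes. All windows were free in 3.4% (*SUMO-KallR*) and 2.5% (untagged) of cases, and outside windows in 16.15% and 13.2%. Within the GC class from 30% to 35%, which held 185 LTRs, 61.6% of LTRs met *SUMO-KallR* peaks and 84.9% met untagged peaks, against 91.4% and 93.0% of outside windows. With uniqueness, GC class and a length of at least 340 bp all required, 25 of 59 LTRs (42.4%) were free in *SUMO-KallR* and 10 (16.9%) in the untagged list, against 9.07% and 6.66% of 1743 outside windows. These classes were chosen after values had been seen, the input was not analysed here, and the part of repeats and base composition in the cover of LTRs was not tested further. Outside windows with a run of 8 A or 8 T were free in 21.7% of cases in *SUMO-KallR* and 15.4% in the untagged list, and those without it in 13.4% and 12.1%.

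The most AT-rich outside windows were free of peaks more often than LTRs were. Outside windows of under 25% GC, a class in which no LTR fell, were free in 47.5% of cases in *SUMO-KallR* and 20.6% in the untagged list. Of all LTRs, 39.5% and 17.2% were free. LTRs of 25% to 30% GC (n = 29) met *SUMO-KallR* peaks in 58.6% and untagged peaks in 79.3% of cases, against 85.4% and 88.8% of outside windows of that class. LTRs of at least 35% GC (n = 24) gave 54.2% and 70.8%, against 77.4% and 76.1%.

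The dip in cover was centred on the LTR itself. At 100 bp past the LTR centre, in the direction of the LTR, 33.2% of LTRs were under a *SUMO-KallR* peak and 60.1% under an untagged peak, the lowest values between 5 kb before and 5 kb after. At 1000 bp before the centre, 87.4% were under a *SUMO-KallR* peak and 91.2% under an untagged peak, and at 1000 bp after it 85.3% and 87.4%. At 2000 bp before the centre the lists were at 94.1% and 94.5%, and at 2000 bp after it at 90.25% and 94.1%. Their shares of the chromosomes were 92.8% and 95.2%. Farther out the cover varied, with 89.9% and 94.5% at 5000 bp before the centre and 85.1% and 87.7% at 4700 bp after it. Inside the LTR the cover declined along its direction, with means over its first, middle and last part of equal length of 44.8%, 37.7% and 33.9% in *SUMO-KallR* and 71.1%, 67.2% and 60.3% in the untagged list.

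**Figure D2:**
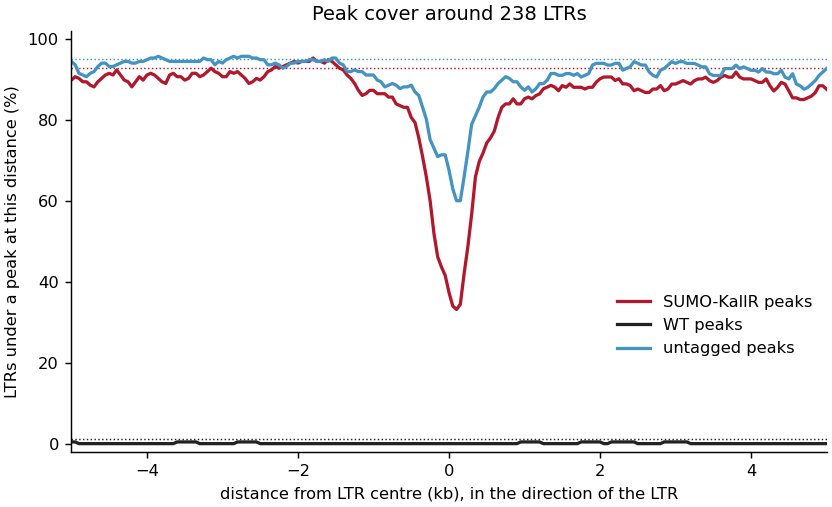
Share of the 238 LTRs (%) that were under a *SUMO-KallR*, WT or untagged peak at each distance from the LTR centre (kb, every 50 bp, in the direction of the LTR); dotted lines give the share of the chromosomes under peaks of each list. The dip reaches 33.2% in *SUMO-KallR* and 60.1% in the untagged list at 100 bp past the centre, and the WT line stays close to 0.

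The positions of peak edges and summits gave the same picture. Of 3230 edges of *SUMO-KallR* peaks, 92 (2.85%) lay in an LTR, of 118 edges of WT peaks 0, and of 1922 edges of untagged peaks 85 (4.42%), in 0.606% of the chromosomes. Edges were not counted over the outside windows. Only 3 of 1615 *SUMO-KallR* summits, 0 of 59 WT summits and 0 of 961 untagged summits lay in an LTR. The 3 had heights of 2.9 to 19.8 with a median of 11.4, against a median of 15.8 over all *SUMO-KallR* peaks.

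Gaps between consecutive peaks that held an LTR were about as frequent among all gaps in both dense lists. In *SUMO-KallR*, 162 of 1612 gaps (10.1%) held at least 1 bp of an LTR, and in the untagged list 108 of 958 (11.3%). LTR sequence made up 5.28% of the gap length in *SUMO-KallR* and 4.37% in the untagged list, against 0.606% of the chromosomes. Other DNA outside coding genes was also less covered than the chromosomes as a whole. Peaks covered 72.4% (*SUMO-KallR*) and 78.8% (untagged) of the bases of outside windows, against 37.8% and 65.6% of LTR bases. Gaps with an LTR had a median length of 587.5 bp in *SUMO-KallR*, where gaps without one had 342.5 bp. In the untagged list the medians were 379.5 bp with and 380.5 bp without an LTR. A longer gap is likelier to meet an LTR, so gaps with and without one are not compared on equal terms. WT peaks were too few for gaps on the arms to be read.

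LTRs with no base under a peak filled a large part of their gap, which limits where their centre can lie. The gap around the 94 free LTRs of the *SUMO-KallR* list had a median length of 850.5 bp (352 to 8454 bp), and that around the 41 of the untagged list 819 bp (257 to 5639 bp). The LTR filled a median of 38.1% of its gap in *SUMO-KallR* and 33.5% in the untagged list. With 0 as the one edge and 1 as the other, the LTR centre lay at a median of 0.478 in *SUMO-KallR* (quartiles 0.382 and 0.598) and 0.507 in the untagged list (0.335 and 0.606). The nearer edge was a median of 118 bp from the LTR in *SUMO-KallR* and 124 bp in the untagged list, the farther edge 361.5 bp and 403 bp, so single LTRs were often off the centre of the gap, to either side.

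**Figure D3:**
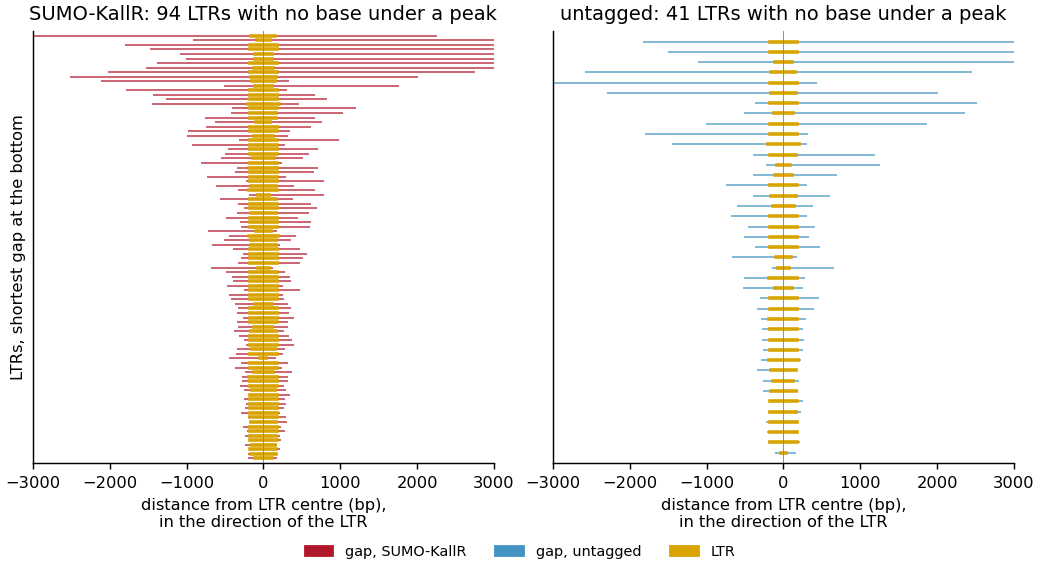
Gap between peaks (thin line) around each LTR with no base under a peak (thick bar), by distance from the LTR centre (bp, in the direction of the LTR), for the *SUMO-KallR* (n = 94) and untagged (n = 41) lists, with the shortest gap at the bottom. The median gap is 850.5 bp in *SUMO-KallR* and 819 bp in the untagged list, and lines that reach the frame go on beyond 3000 bp.

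Free LTRs were shared between the lists only in part. In both *SUMO-KallR* and the untagged list 31 LTRs were free, 63 were free in *SUMO-KallR* only and 10 in the untagged list only. The 31 were 33.0% of the free LTRs of *SUMO-KallR* and 75.6% of those of the untagged list. Among outside windows free in both lists these shares were 52.6% and 64.5%. Cover was lower in *SUMO-KallR* than in the untagged list for 130 LTRs (54.6%), equal for 73 and higher for 35 (14.7%), against 25.6% lower and 12.3% higher among outside windows. The 2 lists come from 1 library each, and what else differs between these libraries cannot be told apart from the strains.

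The extremes of this comparison were uneven for LTRs, and were not counted for windows. Outside windows, too, were more often lower than higher in *SUMO-KallR*, with 25.6% against 12.3%. A single LTR of 75 bp inside *nse1*, which encodes a subunit of the Smc5-Smc6 complex, was wholly under a *SUMO-KallR* peak and free of WT and untagged peaks (chrIII:1195985-1196059). In the other direction, 29 LTRs were free in *SUMO-KallR* and wholly under untagged peaks. The longest 6 of these measured 352 to 364 bp, had GC contents of 34.1% to 35.2% and lay in *SUMO-KallR* gaps of 502 to 1303 bp. They were 135 bp from *fft2* (chrIII:187086-187449), 81 bp from SPAC6B12.14C (chrI:2437580-2437941), 131 bp from *iec5* (chrI:3321466-3321823), 400 bp from *mug51* (chrI:4715792-4716149), 2234 bp from *snf22* (chrIII:2180475-2180832) and 390 bp from *vps28* (chrI:4939621-4939972). The gene *fft2* encodes a relative of the chromatin remodeller Fft3, and *snf22* the motor of the SWI/SNF complex. Uniqueness was 62.6% to 100.0% over the 6.

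The longest gaps around LTRs were of several kinds. The longest in *SUMO-KallR*, 8454 bp at chrIII:2431420-2439873, held 2 LTRs and the genes SPCC569.01C, SPCC569.02C and SPCC569.03, and 36.8% of its 150-base sequences were unique. The second, 5604 bp at chrI:4523959-4529562, held 3 LTRs in a row next to SPAC27D7.09C and SPAC27D7.11C. It was 2.2% unique and coincided with the longest such gap of the untagged list (5639 bp, chrI:4523933-4529571). The third, 4753 bp at chrII:3486740-3491492, held 4 LTRs beside *zfs1* and was 95.9% unique, with 32.8% of it under untagged peaks. One of its LTRs, at chrII:3489303-3489651, is a solo copy of the first printed sequence. The fourth was 4511 bp at chrIII:24506-29016 with 1 LTR and was 14.7% unique. The fifth, 2936 bp at chrIII:114421-117356, began inside a solo LTR, of which it held 310 bp. It ran on over *tam14* and *ura4* and was 99.7% unique. The strains carry *ura4-D18*, so *ura4* is not in their DNA, and 26.2% of this gap was under untagged peaks.

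The untagged list had the next of its longest gaps at places that *SUMO-KallR* shared only in part. These were 5010 bp at chrIII:2435053-2440062, 4788 bp at chrI:3991349-3996136, 4785 bp at chrI:1148723-1153507 and 4284 bp at chrIII:24512-28795. The gap of 4788 bp held *pfl2*, which encodes a cell surface protein of the flocculin family, a solo LTR that is unique throughout, and the end of the 3′ LTR of Tf2-5. In *SUMO-KallR*, 7.4% of it was under peaks. Uniqueness was 14%, 97.7%, 100.0% and 10.9% over these 4 gaps.

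The share of LTRs under peaks changed little with the distance to a tRNA gene. The tRNA genes, 171 in the annotation, are the sites at which retrotransposons of budding yeast insert, and in fission yeast they also lie in clusters at the centromeres. The LTRs were 3 to 343825 bp from the nearest one, with a median of 47217 bp, and 7 were within 2 kb. Up to 10 kb (n = 36), 61.1% met *SUMO-KallR* peaks and 86.1% untagged peaks, against 60.4% and 82.2% beyond 10 kb (n = 202). The 7 tRNA genes within 2 kb of an LTR were wholly under *SUMO-KallR* and untagged peaks, and none was under a WT peak. Of all tRNA genes, 95.9% were under *SUMO-KallR* peaks, 22.2% under WT peaks and 94.7% under untagged peaks. Over the whole length these shares were 95.3%, 21.05% and 93.6%.

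The 4 LTRs closest to a tRNA gene differed among themselves. The LTR 3 bp from SPATRNAVAL.01 (chrI:446075-446342) was at 100.0% in *SUMO-KallR* and the untagged list, and the LTR 289 bp from SPATRNATHR.05 (chrI:4715792-4716149) at 0.0% and 100.0%. The LTR 327 bp from SPCTRNAVAL.11 (chrIII:1207147-1207503) had 69.5% under *SUMO-KallR* peaks and 100.0% in the untagged list. The LTR 408 bp from SPBTRNAPRO.04 (chrII:1826267-1826606) had 69.1% under *SUMO-KallR* peaks and 0.0% in the untagged list. All 4 were at 0.0% in WT.

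By chromosome the shares were close to each other. In *SUMO-KallR*, 57.8% of LTRs on I, 59.4% on II and 64.6% on III were under a peak, and in the untagged list 82.2%, 81.2% and 84.8%. Windows gave 96.9%, 96.4% and 96.2% in *SUMO-KallR* and 97.8%, 97.4% and 96.7% in the untagged list. The 44 LTRs within 100 kb of a chromosome end were under peaks in 75% (*SUMO-KallR*) and 79.5% (untagged) of cases, the 193 away from ends and centromeres in 57.0% and 83.4%.

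The share with at least 1 bp under a peak also changed little with likeness to the LTR of Tf2-1. Of 48 LTRs with at least 95% identity over at least 80% of its length, 60.4% met *SUMO-KallR* peaks and 85.4% untagged peaks. Of 155 with a weaker match these were 59.4% and 80.6%, and of 35 with no match 65.7% and 88.6%. LTRs that held the 20-base start gave 56.5% (*SUMO-KallR*) and 82.3% (untagged), those without it 61.9% and 82.9%. The share wholly covered was higher with less likeness. In *SUMO-KallR* it was 10.4%, 22.6% and 45.7% from the closest matches to no match, and in the untagged list 33.3%, 47.7% and 71.4%. LTR length was not matched between these classes.

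The 12 LTRs with the same 349 bases show how much the cover varied at 1 sequence. Of these, 9 belong to Tf2 elements and 3 are solo. In *SUMO-KallR* their cover ran from 0.0% to 85.7% with a median of 42.7%, with 4 free and 0 wholly covered. In WT all 12 were at 0.0%. In the untagged list it ran from 0.0% to 100.0% with a median of 81.4%, with 3 free and 4 wholly covered. The 3 solo copies were at 0.0% in *SUMO-KallR*, and at 0.0%, 0.0% and 100.0% on chromosomes I, II and III in the untagged list. The 150-base sequences over these copies were unique in 28.9% to 59.4% of cases, those that reach into the flanks.

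**Figure D4:**
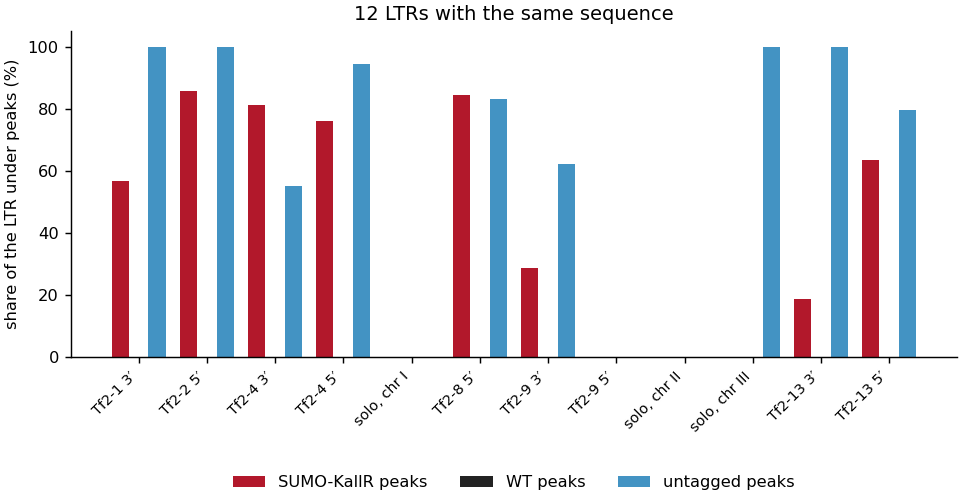
Share of the LTR under *SUMO-KallR*, WT and untagged peaks (%) for the 12 LTRs with identical sequence, named by element and end or as solo with the chromosome. Cover ranged from 0.0% to 85.7% in *SUMO-KallR* and from 0.0% to 100.0% in the untagged list, and no copy had WT cover.

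All 13 Tf2 elements met *SUMO-KallR* and untagged peaks, and 2 of 13 also met a WT peak. Of windows of 4900 bp, about the length of an element, 99.9% were under a *SUMO-KallR* peak, 1.91% under a WT peak and 99.8% under an untagged peak, so the first and the last of these counts are those of any stretch of that length. From the outer edge of the one LTR to that of the other, elements were covered to 73.0% to 100.0% in *SUMO-KallR* (median 92.9%) and to 78.3% to 100.0% in the untagged list (median 96.4%). The median window of 4900 bp was covered to 98.0% in *SUMO-KallR* and 100% in the untagged list. The Tf2 gene itself was wholly covered in 10 of 13 elements in each of these lists, against 79.9% (*SUMO-KallR*) and 88.5% (untagged) of all genes. Only 2.9% to 32.7% of the 150-base sequences over an element were unique, so reads over most of the body cannot be assigned to 1 of the copies.

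The peaks over most elements ended in or near the LTRs. The 5′ LTR had a median cover of 75.9% in *SUMO-KallR* and 83.1% in the untagged list, and the 3′ LTR 34.7% and 67.1%. The cover of the LTRs at the ends of 1 element differed by a median of 53.1 points in *SUMO-KallR* and 23.5 points in the untagged list, with the 5′ LTR higher in 7, the 3′ LTR higher in 5 and neither in 1 in each list. In 7 elements the LTR pair is identical in sequence, and pairs still differed.

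Tf2-9 (SPBC9B6.02C, chrII:1812349-1817262) has identical LTRs. The 5′ LTR was at 0.0% in all lists, and the 3′ LTR at 28.7% in *SUMO-KallR* and 62.2% in the untagged list. In Tf2-10 (SPBC1E8.04, chrII:1964875-1969789), with identical LTRs too, the 5′ LTR was at 0.0% in *SUMO-KallR* and 64.2% in the untagged list, and the 3′ LTR at 54.4% and 57.9%. Tf2-10 was the least covered element, at 73.0% in *SUMO-KallR* with 3 peaks and 78.3% in the untagged list with 4 peaks, and its gene was at 81.9% and 82.5%. In this element both lists had breaks at about the same places within the gene.

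At Tf2-1 (SPAC9.04, chrI:1465332-1470247), whose LTRs differ at 1 base, the 5′ LTR was at 0.0% in *SUMO-KallR* and the untagged list and the 3′ LTR at 56.7% and 100.0%. Tf2-2 (SPAC167.08, chrI:1563817-1568732) was the other way round, with the 5′ LTR at 85.7% in *SUMO-KallR* and 100.0% in the untagged list and the 3′ LTR at 0.0% and 8.9%. Tf2-13 (SPCC1494.11C, chrIII:2319921-2324835) had 63.3% of the 5′ LTR and 18.6% of the 3′ LTR under *SUMO-KallR* peaks, and 79.7% and 100.0% in the untagged list. These 3 elements were covered to 86.6%, 89.8% and 91.6% in *SUMO-KallR* and to 91.2%, 93.5% and 98.6% in the untagged list.

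Besides Tf2-2 and Tf2-13, 5 elements had more of the 5′ LTR than of the 3′ LTR under *SUMO-KallR* peaks. Tf2-3 (SPAC2E1P3.03C) had 100.0% and 34.1%, Tf2-5 (SPAPB15E9.03C) 100.0% and 12.2%, Tf2-6 (SPAC27E2.08) 65.0% and 34.7%, Tf2-7 (SPAC13D1.01C) 100.0% and 39.2%, and Tf2-12 (SPCC1020.14) 75.4% and 22.3%. In the untagged list the same pairs were 100.0% and 57.3% (Tf2-3), 65.3% and 67.1% (Tf2-5), 100.0% and 76.5% (Tf2-6), 100.0% and 100.0% (Tf2-7), and 62.8% and 50.7% (Tf2-12). Tf2-4 (SPAC26A3.13C) had 75.9% of the 5′ and 81.1% of the 3′ LTR under *SUMO-KallR* peaks, and 94.3% and 55.0% in the untagged list. Tf2-11 (SPBC1289.17, chrII:4414197-4419057) was wholly under 1 *SUMO-KallR* peak and at 98.3% in the untagged list, and has the highest share of unique sequence, 32.7%.

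**Figure D5:**
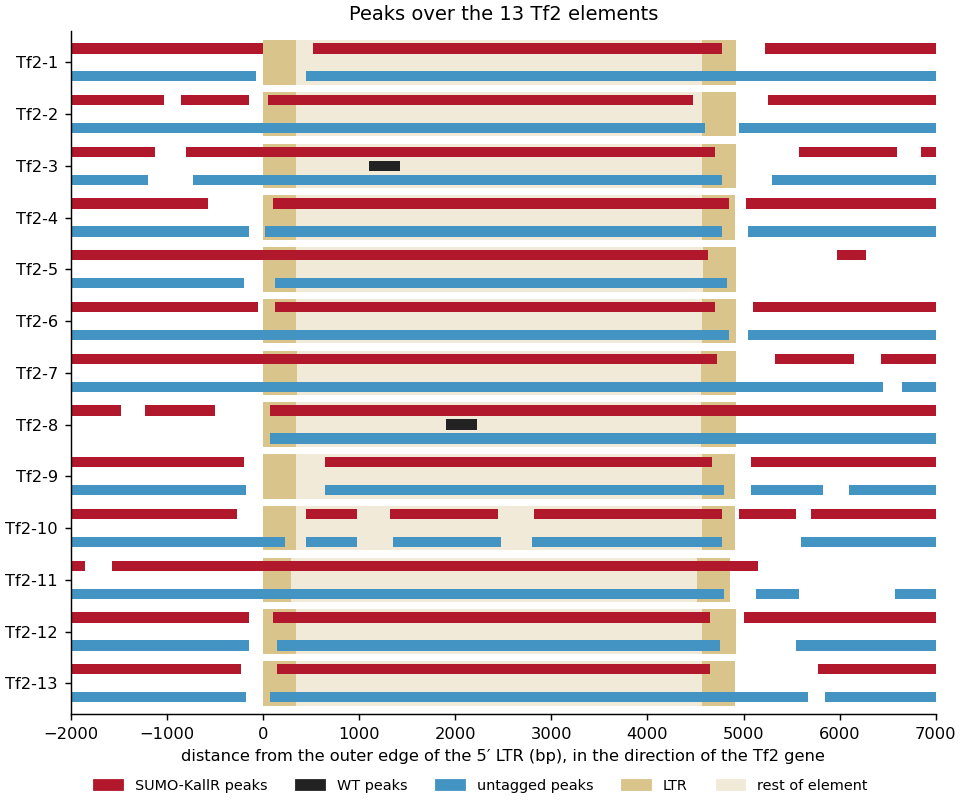
Peaks of the *SUMO-KallR*, WT and untagged lists (bars, top to bottom in each row) along the 13 Tf2 elements, by distance from the outer edge of the 5′ LTR (bp, in the direction of the gene), with the LTRs and the rest of the element shaded. Most of the body of 12 of 13 elements lies under 1 continuous peak in *SUMO-KallR* that often ends in an LTR, Tf2-10 is broken into 3 peaks, and WT peaks appear in Tf2-3 and Tf2-8 only.

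The WT peaks in Tf2 elements were short, low and inside the gene. In Tf2-3 the WT peak at chrI:2930313-2930625 was 313 bp long with a height of 2.4 and covered 6.4% of the element. In Tf2-8 (SPAC19D5.09C) the WT peak at chrI:5198008-5198337 was 330 bp long with a height of 6.4 and covered 6.7%. The median height over all WT peaks was 41.5 and the lowest was 1.8. The summits lay 842 bases (Tf2-3) and 1555 bases (Tf2-8) from the gene start, at different places of a nearly identical gene. The sequence under the peak in Tf2-3 occurs 7 times in the genome and that in Tf2-8 occurs 3 times, and none of the 150-base sequences over either is unique, so these data do not place these peaks at 1 copy. The LTR nearest to any WT peak was the 5′ LTR of Tf2-3 (chrI:2931372-2931720), 746 bp away.

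The genes beside LTRs were under peaks about as often as other genes, but less often over their whole length. Of the 12574 genes of the annotation, 97.8% were under a *SUMO-KallR* peak, 1.42% under a WT peak and 98.4% under an untagged peak. The 330 protein-coding genes within 1 kb of an LTR, Tf2 genes left out, were wholly covered in 61.5% of cases in *SUMO-KallR* and 85.2% in the untagged list, against 83.8% and 92.3% of the 4770 genes farther away. No gene of either group was wholly under a WT peak. At least 1 bp was covered in 98.5% (*SUMO-KallR*) and 98.8% (untagged) of the 330 genes, against 99.6% and 99.7% of the 4770.

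The *wtf* genes, a family of meiotic drivers that kill spores lacking them, are often flanked by LTRs. Of 16 *wtf* genes, all on chromosome III, 14 lay within 1 kb of an LTR. All 16 met peaks in *SUMO-KallR* and in the untagged list, and none was under a WT peak. Over the whole length 13 and 16 of them were covered, against 79.9% and 88.5% of all genes. The least covered *wtf* genes were *wtf10* at 97.8%, *wtf20* at 98.0% and *wtf11* at 98.5% in *SUMO-KallR*. The 20 LTRs within 1 kb of a *wtf* gene were covered far less than these genes. In *SUMO-KallR*, 13 of them (65.0%) were under a peak with a mean cover of 30.4%, in WT 0, and in the untagged list 20 with a mean cover of 80.5%. LTRs farther from *wtf* genes had mean covers of 39.6% in *SUMO-KallR* and 64.9% in the untagged list.

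The genes of proteins known to act on Tf elements were listed as well. These were *cbp1*, *cbh1* and *cbh2*, *sap1*, the remodellers *fft3*, *hrp1* and *hrp3*, the histone chaperone genes *hip1* and *slm9*, and the H3K4 methyltransferase gene *set1*. All 10 met *SUMO-KallR* and untagged peaks, and none was under a WT peak, as for most genes. Of these, 8 in *SUMO-KallR* and 9 in the untagged list were wholly covered, against 79.9% and 88.5% of all genes. The exceptions were *sap1* at 85.0% in *SUMO-KallR* and 95.8% in the untagged list, and *hip1* at 91.8% in *SUMO-KallR*.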

How the data were processed

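Per the paper's methods, the authors cleaned reads with Cutadapt, aligned them by Bowtie2 to ASM294v2 and sacCer3, the spike-in genome, and used Samtools to drop unmapped, rDNA, mitochondrial and duplicate reads. Peaks were called by MACS3 for each library against the larger of its local and overall background, after scaling and spike-in calibration. Per the labels, a stricter removal of background was applied later. The paper's Reporting Summary lists a MACS3 callpeak command without a shifting model, with the input as control, and read numbers per library, while its methods name bdgpeakcall. Tool versions, a cutoff for bdgpeakcall and how the later removal was done were not given in the sources used here. Deposited lists hold peak starts, ends and summit positions, and a score. The score, by the convention of MACS and not by a header, is 10 times the highest −log10(*p*-value). It was divided by 10 and depends on the depth of a library, which the lists do not hold.

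Features came from the RefSeq annotation of ASM294v3, and all peaks ended within its chromosomes. ASM294v2, to which reads were mapped, was not compared with it base by base, and all cover values assume the same coordinates. The fraction of each feature under peaks was computed from starts and ends, and at least 1 bp counted as under a peak. No test was made, since each strain has 1 ChIP library. The intervals used to judge alternatives are exact binomial with 95% confidence and cover counting only. Likeness was scored with BLAST+ 2.17.0. Named regions were all Tf2 elements, members under WT peaks, the 5 longest gaps with an LTR of each dense list, up to 6 LTRs wholly covered in 1 list and free in the other, and the 4 LTRs closest to a tRNA gene. Sequences for printing, the 20-base start and the runs of 8 bases were chosen after values had been seen. Members and lists were chosen with earlier results of these data known. The scripts were tested on simulated data. Analyses ran in Python 3.11.15 with pandas 2.3.3, NumPy 2.4.6, matplotlib 3.10.9 and SciPy 1.17.1. The input libraries were not analysed here.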

Additional observations from a re-analysis of the deposited data

How the results depend on the processing

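With peaks of a height of at least 5, 1 Tf2 element met a WT peak, and with a height of at least 10, 0. With at least 10, solo LTRs under *SUMO-KallR* peaks were 50.7%, and in the untagged list LTRs under peaks were 76.9%, free LTRs 23.1% and solo LTRs under peaks 75.1%. With peaks closer than 500 bp merged, gaps with an LTR numbered 96 in *SUMO-KallR* and 43 in the untagged list. With at least 50% of a feature required, 37.8% of LTRs, 35.7% of solo and 56.0% of element LTRs were under *SUMO-KallR* peaks and 62.2% of LTRs were free. In the untagged list 67.7% of LTRs and 65.3% of solo LTRs were then under peaks and 32.4% free, and 0 Tf2 elements were under WT peaks. Of LTRs unique over more than 50% only 2 belong to elements, 50.0% of them under *SUMO-KallR* and 100% under untagged peaks, and of those unique throughout, 1 does, at 100% in *SUMO-KallR* and the untagged list. By construction, the height floors drop peaks, merging closes gaps, the 50% rule raises the cover required and the uniqueness rules leave out LTRs. The other 133 values stayed within the exact 95% interval of the reported share or within 1.5 times the reported count. Uniqueness throughout and the minimum length of 340 bp were added after seeing the data. No paired analysis was possible because the comparisons come from no test and each strain has 1 ChIP library.

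Limits are the single library per strain, peaks in place of signal, lists without read counts, and reads of repeats that cannot be placed. Whether each annotated LTR is present in the strains used was not tested, nor was the input at LTRs. Whether the gaps follow from the stricter removal of background was not tested.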
